A study of Saccharomyces cerevisiae with 36 samples.

Results

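The mALb8x R-form designs are 16 chains of synthetic designed heterodimers whose names begin with a 4-digit number followed by mALb8x, a suffix (x1, x2, x12 or x12j), a tag (fdrtc or rprtc) and the letter A or B. They were chosen by name and make up 8 forms of 2 chains each, 16 of the 137 chains of a combined pool of coiled-coil peptides and designed chains (called the Coiled pool here) and 16 of the 86 chains of a smaller pool, the mALb R pool. No source used here explains R, T, fdrtc, rprtc or the suffixes, so the forms are described by these names alone, with the leading number left out. The study measured interactions of barcoded proteins in yeast by counting barcode pairs before and after a growth selection. It holds 36 libraries in 13 library sets, of which 3 sets contain these chains. Two-hybrid reporters of this kind make growth without histidine depend on both fusion proteins coming together, and 3-AT, a competitive inhibitor of the HIS3 enzyme of histidine synthesis, raises the amount of reporter a cell needs.

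All groups shared 1 yeast strain of mating type MATa. Its HIS3 reporter is leu2::pGAL6z-HIS3, and it also carries the insertions pep4::BleoMX and AGA1::GAL1-AGA1::URA3. The other alleles listed are his3-delta, leu2-delta200, trp1, ura3-52, can1, prbd1.6R and GAL. The genes were made as synthetic fragments with their barcodes and joined to the vector by recombination in yeast. The groups differ in medium: with histidine (before selection) or without histidine and with 3-AT (after selection). The sample descriptions give 1 mM 3-AT and the growth protocol gives 3 mM. The Coiled pool had 2 biological replicates, each library sequenced in 2 technical runs that were summed, and the mALb R pool had 1 library per condition. The Coiled pool held 22515090 and 14428752 reads before selection and 16479810 and 17791146 after it, in replicates 1 and 2, over 18769 ordered pairs. The mALb R pool held 8857819 reads before and 8598079 after selection over 7396 ordered pairs. The technical runs of a library correlated over the 4128 ordered pairs with a mALb8x chain with Pearson's r from 0.984 to 0.994 on log2 shares of reads.

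Designed heterodimers of this kind are pairs of helical chains whose interface is meant to favour the partner chain over copies of the same chain. Chains of different designs in one pool therefore measure both the intended contact and contacts with other designs. In a matrix of all against all, each combination of an A and a B chain is read in both orientations, once with A as the row protein and once as the column protein. No source used here says which axis carried the DNA-binding domain, and a pair is named by its row protein first.

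Each chain was read through 1 barcode of 20 bases, which stands for the whole protein in the counts. The barcodes of the x12 and x12j forms are shown because the 2 tags of these forms gave the largest differences between A with B pairs, and because the barcode with the longest run of 1 base belongs to the chain with the fewest reads. They are written as the deposited barcode map has them, with runs of at least 4 identical bases in capitals.
mALb8x12_fdrtc_A: acctgttcttagattagagc
mALb8x12_fdrtc_B: tgcgacccggaccggttgcc
mALb8x12_rprtc_A: tgagatagacatccttgggc
mALb8x12_rprtc_B: GGGGGGctctggagtagcgt
mALb8x12j_fdrtc_A: ttgtaccctctgtcatttgt
mALb8x12j_fdrtc_B: tgatgtgatacaatggcctc
mALb8x12j_rprtc_A: TTTTataagatcctagaata
mALb8x12j_rprtc_B: aacacagggcattgccctga
The 16 barcodes differed from every other barcode of the map at 9 positions or more, and their GC content ran from 20% to 75%. The barcode of mALb8x12_rprtc_B opens with a run of 6 G. As column protein this chain had a median before selection of 64 reads per unrelated partner in replicate 1, 31 in replicate 2 and 129.5 in the mALb R pool. The other 15 chains had column medians of at least 548 and 515 reads in the replicates. Values with mALb8x12_rprtc_B as column protein therefore rest on few reads.

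For every ordered pair the log2 ratio is the log2 of its share of reads after selection over its share before, with 1 read added to each count. A value above 0 means that the pair took a larger share of the library after selection. Over all pairs the median was -2.44 in replicate 1, -2.11 in replicate 2 and -2.29 in the mALb R pool. The log2 change is the fitted value of edgeR's quasi-likelihood test over both Coiled replicates with TMM scaling, which sets the bulk of pairs near 0 (median over all tested pairs 0.05, against -2.20 for the mean log2 ratio of all pairs). Pairs with an adjusted p under 0.05 (Benjamini-Hochberg over 15532 tested pairs) are called enriched. With 2 replicates no permutation of the samples can give a p under 0.05, so medians over pairs are given without a test. PCR reads without molecular identifiers are not independent molecules, and the intervals given for the mALb R pool and for shares of reads cover counting error only.

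The A chain with the B chain of the same form had the highest median of the kinds of mALb8x pairs, and all pairs of the x1 and x2 forms lay above 0 in every library set. The median log2 ratio over the 16 A with B pairs was 3.60 and 2.59 in the Coiled replicates and 3.96 in the mALb R pool. The 3680 pairs with unrelated partners had medians of -2.28, -1.92 and -2.26. Of the 16 A with B pairs, 14 lay above 0 in both Coiled replicates, where the background over all pairs was 5.56%, and 14 lay above 0 in the mALb R pool, where it was 10.5%. The reads of these 16 pairs made up 0.106% of the library before selection in both Coiled replicates (95% Wilson intervals 0.105 to 0.107% and 0.105 to 0.108%). After selection they made up 1.19% and 1.11% (intervals 1.19 to 1.20% and 1.10 to 1.11%). In the mALb R pool they went from 0.245% (interval 0.242 to 0.249%) to 4.02% (4.01 to 4.04%). The edgeR test called 5 of the 16 enriched, against 0.972% of all tested pairs, and none lower (15 had an unadjusted p under 0.05 and a higher share, against 10.5% of tested pairs, and 0 a lower one). Without replicate 1 or without replicate 2 of the libraries before selection it called 0 of them. Without either library after selection it called 15. DESeq2 called 14, against 12.9% of all tested pairs, and edgeR on library sizes without TMM called 11, against 3.26%.

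Both x1 forms were high in either orientation. The pair mALb8x1_fdrtc_A with mALb8x1_fdrtc_B went from 3060 to 23053 reads in replicate 1, from 1771 to 43713 in replicate 2 and from 1046 to 35752 in the mALb R pool. Its log2 ratios were 3.36, 4.32 and 5.14, and its log2 change was 6.21 ± 0.55 (SE, n = 2, edgeR adjusted p = 0.036). In the other orientation, mALb8x1_fdrtc_B with mALb8x1_fdrtc_A had log2 ratios of 4.27, 3.92 and 5.19 (log2 change 6.48 ± 0.59). Both orientations of this form were enriched. The rprtc form of x1 gave 3.82, 4.61 and 4.44 with A as row protein (log2 change 6.58 ± 0.58, enriched). With B as row protein it gave 3.65, 2.37 and 4.25 (5.67 ± 1.06, edgeR adjusted p = 0.124). The lower value of replicate 2 went with the wider error, and this orientation did not pass the test.

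The x2 forms were close behind. The pair mALb8x2_rprtc_B with mALb8x2_rprtc_A went from 1704 to 18738, from 952 to 19416 and from 2091 to 36817 reads. Its log2 ratios of 3.91, 4.05 and 4.18 were the most even over the 3 library sets among the x2 pairs, and it was enriched (log2 change 6.34 ± 0.65, edgeR adjusted p = 0.044). In the other orientation the rprtc form gave 3.77, 2.98 and 4.89. The fdrtc form of x2 gave 3.997, 2.58 and 4.46 with A as row protein and 3.12, 3.60 and 3.90 with B as row protein. All 4 x2 pairs were above 0 in all 3 library sets, and 3 of them did not pass the edgeR test (adjusted p from 0.0744 to 0.114).

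The x12 and x12j forms differed by tag. The pair mALb8x12_fdrtc_A with mALb8x12_fdrtc_B had log2 ratios of -1.01 and -0.74 in the Coiled replicates and 1.78 in the mALb R pool (95% counting interval 1.67 to 1.89). Its log2 change was 1.47 ± 0.45, above the bulk of pairs but not past the test, and scaled by library size without TMM it was -0.84. In the other orientation this form gave 1.16, 0.44 and 1.73. The rprtc form of x12 gave 2.40, 2.60 and 3.39 with A as row protein, from only 120, 33 and 180 reads before selection. With B as row protein it gave 4.21, 2.30 and 3.72. None of the 4 x12 pairs passed the edgeR test, although with the replicate block mALb8x12_rprtc_A with mALb8x12_rprtc_B did (log2 change 4.87, adjusted p = 0.0049).

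The x12j form held the lowest A with B pair and one of the highest. The pair mALb8x12j_fdrtc_A with mALb8x12j_fdrtc_B went from 941 to 47 reads in replicate 1, from 561 to 138 in replicate 2 and from 883 to 161 in the mALb R pool. Its log2 ratios of -3.84, -2.32 and -2.41 lay below the median of all pairs in each library set (log2 change -0.64 ± 0.48, not past the test). With B as row protein the same form gave 0.79 and 1.01 in the Coiled replicates and -0.96 in the mALb R pool (counting interval -1.14 to -0.79). The rprtc form of x12j gave 3.55, 1.02 and 3.95 with A as row protein. With B as row protein, mALb8x12j_rprtc_B with mALb8x12j_rprtc_A gave 4.51, 4.49 and 3.97, the highest log2 change of the 16 pairs (6.86 ± 0.58, edgeR adjusted p = 0.034).

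Set against each other, fdrtc and rprtc forms of x1 and of x2 did not separate, whereas those of x12j did in both orientations. For x1 the difference in log2 change, fdrtc minus rprtc, was -0.37 with A as row protein (95% interval -1.94 to 1.20) and 0.82 with B as row protein (-1.56 to 3.19). For x2 it was 0.09 (-2.59 to 2.77) and -0.62 (-2.64 to 1.41). These intervals are wide and do not show that the tags act alike. For x12 it was -3.40 (-5.13 to -1.67) with A as row protein and -2.59 (-5.60 to 0.41) with B as row protein. For x12j it was -5.74 (-8.33 to -3.15) and -3.60 (-5.77 to -1.44). Of the 8 intervals 3 lay wholly below 0. They use the spread that the fit shares among pairs and are not adjusted for their number. As normal intervals on 2 replicates they are also too narrow, so an end near 0 is uncertain. In log2 ratios the x12j difference was -7.39, -3.34 and -6.36 with A as row protein and -3.73, -3.48 and -4.93 with B as row protein over the 3 library sets, so that fdrtc was lower in each of them. The x12 difference was -3.41, -3.34 and -1.61 and then -3.05, -1.87 and -1.99.

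The A chain of a form also met the B chains of the 7 other forms, and here the suffix sorted high from low pairs. Over the 112 pairs between forms the median log2 ratio was 1.83 and 1.91 in the Coiled replicates and 2.64 in the mALb R pool. Of these, 65 lay above 0 in both Coiled replicates (58.0%, against 5.56% of all pairs) and 82 in the mALb R pool, where 10.5% of all pairs did. The edgeR test called 12 of them enriched (10.7%, against 0.972%), and DESeq2 called 79 (70.5%, against 12.9%). Without either library before selection edgeR called 0, and without a library after selection 90 or 91. Their reads made up 0.761% of the library before and 4.11% after selection in replicate 1 (95% Wilson intervals 0.757 to 0.764% and 4.10 to 4.12%). In replicate 2 these shares were 0.763% and 4.20% (0.759 to 0.768% and 4.19 to 4.21%), and in the mALb R pool 1.75% and 15.4% (1.74 to 1.76% and 15.35 to 15.4%).

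Chains of suffix x1 and of suffix x2 were high with chains of their own suffix and lower with each other. The 8 pairs of an x1 A chain with an x1 B chain, of either tag, had median log2 ratios of 3.56, 4.01 and 4.70, and 7 of them were enriched. The 8 pairs of x2 A with x2 B had medians of 3.95, 3.39 and 4.57, and 2 were enriched. By contrast the 16 pairs that join an x1 with an x2 chain had medians of -2.04, -1.87 and -1.77, near the median of all pairs, and 0 were enriched. In replicate 1 these pairs had a median of 0.50 with the B chain as row protein and -2.54 with the A chain as row protein, while in replicate 2 the medians were -1.71 and -1.98. In the mean of the Coiled replicates the own-suffix pairs ran from 3.01 to 4.21 and the x1 with x2 pairs from -2.70 to 1.71, so the groups did not overlap there. In replicate 2 alone they did overlap, with own-suffix pairs from 2.04 to 4.61 and x1 with x2 pairs from -2.55 to 2.26. In the mALb R pool 5 of the 16 x1 with x2 pairs lay above 0.

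Single pairs showed the size of this difference. The A chain of x1 fdrtc had a log2 change 3.93 higher with its own B chain than with the B chain of x2 fdrtc (95% interval 1.17 to 6.69). The A chain of x2 fdrtc had one 5.86 higher with its own B chain than with the B chain of x1 fdrtc (3.61 to 8.10). Among the rprtc chains these differences were 4.56 (2.29 to 6.83) and 6.20 (4.37 to 8.04). All 4 of these normal intervals, which are too narrow for 2 replicates, lay above 0. These pairs, like the blocks of suffixes, were chosen after their values were seen.

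The x12 and x12j chains were high with chains of several suffixes, x2 among them. The A chains of x2 with the B chains of x12 had median log2 ratios of 2.77, 2.75 and 3.86, and with the B chains of x12j 2.81, 2.30 and 3.65. The A chains of x12 with the B chains of x2 had medians of 2.12, 2.37 and 3.95, and those of x12j with the B chains of x2 had 2.47, 2.83 and 3.88. The A chains of x12 with the B chains of x12j had medians of 3.40, 2.52 and 4.35, and 0 of these 8 pairs were enriched. The B chains of x1 met the A chains of x12j with medians of -0.80, -1.04 and -1.69, and 0 of these 8 pairs lay above 0 in both Coiled replicates. The A chains of x1 with the B chains of x12 had medians of -0.21 and -0.55 in the Coiled replicates and 0.66 in the mALb R pool. Other blocks with x1 chains had medians above 0. The A chains of x12 with the B chains of x1 had 1.09, 1.77 and 3.06, with 4 of 8 pairs above 0 in both Coiled replicates. The A chains of x1 with the B chains of x12j had 1.14, 1.82 and 0.42, with 5 of 8 pairs above 0 in both. In each of these blocks 1 pair was enriched.

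Among the 112 pairs the 5 highest by their lower Coiled replicate all had the B chain as row protein. The pair mALb8x12_rprtc_B with mALb8x2_rprtc_A was first, with log2 ratios of 4.08, 4.43 and 4.82 (log2 change 6.61 ± 0.82, edgeR adjusted p = 0.058). The pair mALb8x1_fdrtc_B with mALb8x12_fdrtc_A gave 3.99, 4.31 and 4.48 (6.51 ± 0.69, adjusted p = 0.0456). The pair mALb8x12_fdrtc_B with mALb8x12_rprtc_A, which joins the 2 tags of x12, gave 4.74, 3.97 and 5.31 (6.85 ± 0.82). For comparison, mALb8x12_fdrtc_B with its own mALb8x12_fdrtc_A gave 1.16, 0.44 and 1.73, lower in all 3 library sets. The other 2 were mALb8x2_fdrtc_B with mALb8x12_rprtc_A at 3.85, 4.15 and 3.47 and mALb8x12j_rprtc_B with mALb8x1_rprtc_A at 3.72, 4.56 and 4.22, both enriched.

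The 5 lowest all had the A chain as row protein, and 3 of them were above 0 in the mALb R pool. The pair mALb8x12_rprtc_A with mALb8x1_fdrtc_B gave -3.26 and -1.79 in the Coiled replicates and 0.97 in the mALb R pool. The pair mALb8x2_rprtc_A with mALb8x1_rprtc_B gave -3.00, -2.40 and 0.75, and mALb8x2_fdrtc_A with mALb8x1_rprtc_B gave -2.95, -0.85 and 0.32. The other 2 were low throughout. The pair mALb8x12j_fdrtc_A with mALb8x12_fdrtc_B gave -1.72, -3.03 and -2.27, while the swapped orientation gave 3.65 and 2.98 in the Coiled replicates and 0.03 in the mALb R pool. The pair mALb8x1_rprtc_A with mALb8x12j_fdrtc_B gave -2.80, -0.79 and -2.81. Swapped it gave 1.23 and 1.86 in the Coiled replicates, but -2.54 in the mALb R pool, where the orientations were close.

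The chains mALb8x12_fdrtc_A and mALb8x12_rprtc_A differed with the B chains of x1, and less clearly with those of x2. With the B chains of x1 the 4 pairs of mALb8x12_fdrtc_A had median log2 ratios of 2.93, 3.29 and 4.36, and the 4 pairs of mALb8x12_rprtc_A had -2.09, -0.44 and 1.20. With the B chains of x2 the order was the other way round, with 1.65, 2.00 and 3.04 for mALb8x12_fdrtc_A and 3.08, 3.29 and 4.21 for mALb8x12_rprtc_A. Both chains thus had medians above 0 there, and 3 of the 4 pairs of mALb8x12_fdrtc_A lay above 0 in both Coiled replicates. In the fit, mALb8x12_fdrtc_A exceeded mALb8x12_rprtc_A with mALb8x1_fdrtc_B by 5.34 (95% interval 3.72 to 6.96), and all 4 such differences with x1 B chains had intervals above 0. With mALb8x2_fdrtc_B it was lower, at -3.94 (-5.85 to -2.04), but only 1 of the 4 differences with x2 B chains had an interval below 0. These differences too were chosen after their values were seen. With mALb8x1_rprtc_B as row protein the interval reached down to 0.70, and these normal intervals are too narrow for 2 replicates.

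Within and between x12 and x12j, pairs of 2 fdrtc chains were the low ones. The 8 pairs of fdrtc A with fdrtc B had median log2 ratios of -0.45, -0.10 and -0.11. The 8 pairs of fdrtc A with rprtc B had medians of 2.32, 1.61 and 3.16, and the 8 of rprtc A with fdrtc B had 2.86, 3.22 and 3.37. Pairs of 2 rprtc chains had medians of 3.82, 2.69 and 3.84. The fdrtc pairs were not uniform, since they ran from -3.08 to 3.32 in the mean of the Coiled replicates, so they overlapped the other combinations. The difference was not tested.

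The 2 orientations of a combination gave related but unequal values. Over the 64 combinations of an A and a B chain, Pearson's r between the orientations was 0.82 and 0.72 in the Coiled replicates and 0.90 in the mALb R pool. The points share chains and libraries, and the value is given as a description. With B as row protein the log2 ratio was higher in all 3 library sets for 23 combinations, and with A as row protein for 3. The median of A as row minus B as row was -1.33 and -0.88 in the Coiled replicates and -0.08 in the mALb R pool. Over the 128 ordered pairs of an A with a B chain, r was 0.79 between the Coiled replicates and 0.77 and 0.81 between each of them and the mALb R pool.

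Pairs of 2 chains of the same letter were mostly below 0. The 112 pairs of A with A or B with B chains had median log2 ratios of -1.82, -1.47 and -2.20, and 0 were enriched by edgeR (31, or 27.7%, had an unadjusted p under 0.05 and a higher share, against 10.5% of all tested pairs, and DESeq2 called 36, or 32.1%, against 12.9%). Of them 12 lay above 0 in both Coiled replicates (10.7%, against 5.56% of all pairs) and 24 in the mALb R pool, where 10.5% of all pairs did. The median log2 change of the 112 pairs was 1.72, against 0.05 over all tested pairs. The highest by the lower replicate was mALb8x12_fdrtc_B with mALb8x2_fdrtc_B at 2.77, 2.80 and 1.77 (log2 change 5.17 ± 0.88, edgeR adjusted p = 0.106). In the swapped orientation it gave -1.78 and -2.27. The pair mALb8x1_fdrtc_A with mALb8x12_rprtc_A gave 3.51, 1.95 and 3.69. The pair mALb8x1_fdrtc_B with mALb8x12j_rprtc_B gave 1.65 and 1.97 in the Coiled replicates and -1.27 in the mALb R pool.

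Chains paired with themselves had few reads before selection. The 16 homodimers had a median of 157.5 and 68.5 reads in the Coiled replicates, against 1430 and 959.5 for the A with B pairs. Their log2 ratios ran from -3.47 to 2.89 in replicate 1 and from -2.42 to 2.58 in replicate 2. The 8 homodimers with at least 100 reads before selection in both replicates had medians of -1.79 and -1.09, and -2.86 in the mALb R pool. No homodimer was called by edgeR. Of the 14 tested, 6 (42.9%) had an unadjusted p under 0.05 with a higher share, against 10.5% of all tested pairs. DESeq2 called 6 (42.9%), against 12.9%. Of the 16, 4 (25%) lay above 0 in both Coiled replicates, against 5.56% of all pairs. Among these 4 was mALb8x12_fdrtc_B with itself, which had 2 and 0 reads before selection, 2 and 1 after it, and was not tested. The highest by the lower replicate was mALb8x12j_rprtc_B with itself at 1.08, 2.58 and 1.56. It had 159 and 33 reads before selection in the Coiled replicates.

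The Coiled pool also held 6 chains of the T-form design mALb8, namely the full-length A and B chains and the truncations cutT1 and cutT2. Full-length mALb8 chains were high with x1 chains of the other letter. These 8 pairs had median log2 ratios of 4.11 and 3.99 in the Coiled replicates, all were above 0 in both, and 3 were enriched. With x2 chains the letters differed. The 4 pairs of mALb8_A with x2 B chains had medians of 2.24 and 1.97, with 3 above 0 in both replicates and 1 enriched, and the 4 of mALb8_B with x2 A chains had -2.38 and -1.07, with 0 above 0 in both. With x12 chains the medians over both letters were -2.49 and -2.33, and with x12j chains -2.36 and -0.96. For scale, mALb8_A with mALb8_B gave 5.34 and 4.73, and the swapped orientation gave 2.22 and 3.17.

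There were 96 pairs of a T-form chain with a mALb8x chain of the other letter. Of these, 28 (29.2%) lay above 0 in both replicates, against 5.56% of all pairs. The edgeR test called 6 of the 88 tested enriched (6.82%, against 0.972%), and DESeq2 called 41 (46.6%, against 12.9%). The highest was mALb8_A with mALb8x1_rprtc_B, which went from 1570 to 46597 and from 603 to 26526 reads (log2 ratios 5.34 and 5.15, log2 change 7.68 ± 0.82, edgeR adjusted p = 0.0456). The pair mALb8_cutT1_B with mALb8x1_fdrtc_A gave 4.999 and 4.98, and mALb8_A with mALb8x2_rprtc_B gave 5.20 and 4.67, both enriched. The x2 pairs of mALb8_A were split by chain and side. The pair mALb8x2_fdrtc_B with mALb8_A gave -3.92 and -2.35, among the 3 lowest, while swapped it gave 2.04 and 2.89. Next came mALb8_cutT2_A with mALb8x12_fdrtc_B at 4.22 and 5.52 (log2 change 7.15 ± 1.11) and mALb8_cutT1_B with mALb8x1_rprtc_A at 5.79 and 4.14 (7.92 ± 1.56), neither past the test. The other low pairs were mALb8x12_rprtc_B with mALb8_cutT1_A at -3.03 and -3.80 and mALb8x12_rprtc_A with mALb8_cutT2_B, which had only 20 and 8 reads before selection and was not tested. The 96 pairs with T-form chains of the same letter had medians of -2.32 and -1.92, and 0 of the 89 tested were enriched (12, or 13.5%, had an unadjusted p under 0.05 and a higher share, against 10.5% of all tested pairs, and DESeq2 called 18, or 20.2%, against 12.9%).

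Outside mALb8, each chain met 115 unrelated partners per side in the Coiled pool, among them other R-form and T-form designs, short coiled-coil peptides, PUMA variants and Bcl-2 family proteins. Of the 3303 such pairs tested, 45 were enriched, 44 of them with a B chain. This is 1.36% of them, near the 0.972% of all tested pairs, and DESeq2 called 646, or 19.6%, against 12.9% of all. Without either library before selection 0 were called, and without a library after selection 1105 or 1119. The 1 enriched pair with an A chain was mALb8x12j_rprtc_A with IL8_2H_A, at 2.66, 4.75 and 2.41 (named because it stood alone). It had only 79, 24 and 143 reads before selection, against medians of 1046, 768 and 1161 per unrelated partner for this chain as row protein. Pairs with a mALb8x chain made up 68 of the 151 enriched pairs of the whole pool, and 3734 of its 15532 tested pairs. The A chains had medians from -2.97 to -2.25 in replicate 1, from -2.60 to -1.80 in replicate 2 and from -2.61 to -2.03 in the mALb R pool, on either side. The Coiled medians over unrelated partners include Bcl-2 family proteins and inhibitors. With the mALb8x chain as column protein, their pairs had median reads before selection of 2 and 0 for A chains and 1 and 0 for B chains. Of 136 such pairs per letter, 33 and 27 were tested.

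Some B chains of x12, x12j and x2 had higher medians over unrelated partners, in part on 1 side only. As row protein, mALb8x12_fdrtc_B had a median log2 ratio over its unrelated partners of 0.36 and 0.21 in the Coiled replicates, with 37 of 115 partners above 0 in both. The chain mALb8x12j_fdrtc_B had 0.21 and 0.10, also with 37 of 115, and mALb8x12j_rprtc_B had -0.47 and -0.72. Ranks use the median over partners of each pair's mean of both replicates, which can order chains differently from the replicate medians. It was 0.07, 0.19 and -0.45 for these 3 chains. They ranked 3, 2 and 4 of the 122 row proteins with a median of at least 10 reads before selection. The value 0.07 is also that of a pair without reads in any Coiled library. As column proteins mALb8x12_fdrtc_B and mALb8x12j_fdrtc_B were lower, with -1.81 and -1.97 and with -1.82 and -1.53. The chain mALb8x12j_rprtc_B was high on that side too, at -0.29 and -0.40, rank 1 of 128 column proteins. The chain mALb8x12_rprtc_B was rank 2 as column protein, from the few reads given above, but its column median in the mALb R pool was -3.04, the lowest of the 16 chains. As row protein it had -2.28 and -2.15, rank 20 of 122. The chain mALb8x2_rprtc_B had -1.54 and -1.23 as row and -1.34 and -1.05 as column protein. The B chains of x1 stayed between -2.71 and -1.91 in both replicates and on both sides.

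The row medians above 0 were lower in the mALb R pool. Over the 53 unrelated partners that both pools hold, mALb8x12_fdrtc_B as row protein had medians of 0.65 and 0.52 in the Coiled replicates and -1.06 in the mALb R pool. The latter still exceeded the pool's median of -2.29, and over all its partners there (median -0.92) this chain was the highest of the 16 as row protein. The chain mALb8x12j_fdrtc_B had 0.41 and 0.30 against -1.93. The median reads per unrelated partner before selection were 1885, 1205 and 1818 for mALb8x12_fdrtc_B as row protein and 1753, 1014 and 878 for mALb8x12j_fdrtc_B. The difference between the pools was not tested.

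The A with B values can be read against these partner medians. For the 8 A with B pairs of the x1 and x2 forms, between 0 and 6 of the 115 unrelated partners of either chain lay higher in the mean of the Coiled replicates. For mALb8x12_fdrtc_B with mALb8x12_fdrtc_A, 38 of the 115 unrelated partners of the row chain lay higher, and 1 of those of the column chain. For mALb8x12j_fdrtc_A with mALb8x12j_fdrtc_B, 87 and 108 of 115 lay higher. For mALb8x12j_rprtc_B with mALb8x12j_rprtc_A, the counts were 2 and 0.

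Several partners recurred among the enriched unrelated pairs. The peptide BN35 as row protein was enriched with 4 of the 8 B chains (those of x1 and x2, both tags). The chain BW5_2Hx12j_A as column protein was enriched with 4, namely mALb8x1_fdrtc_B, mALb8x1_rprtc_B, mALb8x12_rprtc_B and mALb8x12j_rprtc_B. The chains BN3, BN4 and N2 as row proteins and BW5_2Hx12j_B and BW5_2Hx2_A as column proteins had 3 each. With the B chain as row protein, 13 of the 17 enriched pairs had an R-form BW or IL chain as partner. All of these partners were BW5 chains except BW11_2H_B, and none was an IL chain. The class of R-form BW and IL chains made up 311 of the 847 tested pairs on that side. Of this class 4.18% was called, against 2.01% of the side. With the B chain as column protein, 10 of the 27 had a BN peptide (BN3, BN4 or BN35), and none had an AN peptide. AN and BN peptides together made up 48 of the 808 tested pairs on that side. Of these, 20.8% were called, against 3.34% of the side. Over all tested pairs of the pool 0.972% were called.

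The highest log2 changes among them were those of N2 with mALb8x1_fdrtc_B, which went from 2271 to 69241 and from 1218 to 55972 reads (log2 ratios 5.38 and 5.22, log2 change 7.69 ± 0.54, edgeR adjusted p = 0.034). P5A with mALb8x12j_rprtc_B gave 5.43 and 4.92, and N2 with mALb8x1_rprtc_B gave 5.18 and 5.24. The chain mALb8x2_rprtc_B with BW11_2H_B gave 5.23 and 4.87, and 4.29 in the mALb R pool, and mALb8x12_rprtc_B with BW5_2Hx12j_A gave 4.82, 5.06 and 4.82. Each of these 5 pairs was above the highest A with B value of a mALb8x form in both Coiled replicates. BN35 with mALb8x1_fdrtc_B gave 5.005 and 4.59, IL8_B with mALb8x12j_rprtc_B gave 4.59 and 5.02, and mALb8x12j_rprtc_B with BW5_2H_A gave 4.69 and 4.89, with 4.35 in the mALb R pool. N2 with mALb8x2_fdrtc_B gave 3.88 and 5.44, and mALb8x1_fdrtc_B with BW5_2Hx2_A gave 4.81, 4.57 and 3.92. Of the 45 pairs, 22 were also measured in the mALb R pool, and 19 of these lay above 0 there. The other 3 pair a Jerala_P peptide with a B chain and rest on few reads there. Jerala_P2 with mALb8x12j_rprtc_B went from 158 to 13 reads. Jerala_P4 with mALb8x12_fdrtc_B went from 27 to 1 and Jerala_P6 with mALb8x12_rprtc_B from 47 to 4. The upper ends of their counting intervals were -2.74, -2.11 and -2.06.

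Of these 10 pairs, 9 had lower log2 ratios in both replicates when the orientation was swapped. The pairs were chosen for high values in the orientation named, so a lower swapped value is partly set by that choice. The count is therefore no measure of an orientation effect. N2 with mALb8x1_rprtc_B had log2 ratios of -1.15 and -0.07 when swapped, and BN35 with mALb8x1_fdrtc_B had -0.88 and -3.79. IL8_B with mALb8x12j_rprtc_B stayed high when swapped, at 5.14 and 3.98.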

How the data were processed

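The deposited files are square matrices of raw read counts, with a row and a column for each protein, and barcode maps, per the file headers. Per the submitters' processing notes the authors used DESeq2, and no source used here gives its version, the aligner or the barcode matching. Tests here start from the deposited counts. Technical runs were summed, and a chain absent from a run (1 unrelated chain in 1 run after selection of each replicate) was counted as 0 there. The chains, lists and pairs compared were chosen with earlier results of these data known.

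For the Coiled pool, 15532 ordered pairs averaging 10 or more reads per library entered 1 edgeR 4.0.16 fit (R 4.3.3, TMM, robust glmQLFit, glmQLFTest), with Benjamini-Hochberg adjustment over all of them. SE is the absolute log2 change over the square root of the F statistic, and a difference of 2 pairs has the root of the summed squared SE with a normal 95% interval. With 2 replicates this interval is narrower than the distribution used by the F test would give. The mALb R pool has 1 library per condition and no test. Log2 ratios and medians were computed in Python 3.11.15 (pandas 2.3.3). The fit was tested on simulated data. The labels place libraries of equal number in 1 library set, which pairs them, and their deviations from group means correlated with 0.231. The main fit left the pairing out.

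Pairs were named by rule: every A with B pair, the 5 highest and 5 lowest pairs between forms and the 3 highest of the same letter by the lower replicate, the 5 highest and 3 lowest with T-form chains of the other letter, and the 10 enriched unrelated pairs with the highest log2 change. The alternatives tried were library size without TMM, DESeq2 1.42.0, other filters (none, or 50 reads per library), a replicate block, each library left out, single technical runs, pseudocounts of 0.5 and 5 reads, the bulk median subtracted, at least 10 reads before selection, medians of row and column chains subtracted, R-form partners only, and the mALb R pool.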

Additional observations from a re-analysis of the deposited data

Results flagged for a closer look

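In 20 results (single pairs among the A with B and between-form pairs, other pairs named above, medians of blocks of suffixes and medians of chains) both Coiled replicates lay on one side of a log2 ratio of 0 and the mALb R pool, with 1 library per condition, lay on the other. The difference between the pools was not tested in any of them. Below 0 in the Coiled replicates and above 0 in the mALb R pool were mALb8x12_fdrtc_A with mALb8x12_fdrtc_B (1.78 there), mALb8x12_rprtc_A with mALb8x1_fdrtc_B (0.97), mALb8x2_rprtc_A with mALb8x1_rprtc_B (0.75), mALb8x2_fdrtc_A with mALb8x1_rprtc_B (0.32), mALb8x1_rprtc_B with mALb8x12j_fdrtc_A (0.98), mALb8x2_rprtc_A with mALb8x1_fdrtc_B (0.0279), mALb8x12_fdrtc_A with mALb8x2_fdrtc_B (1.57), mALb8x12j_fdrtc_A with mALb8x1_fdrtc_B (0.57), mALb8x12j_fdrtc_A with mALb8x12_rprtc_B (0.0566) and the median of A of x1 with B of x12 (0.66). Above 0 in the Coiled replicates and below 0 in the mALb R pool were mALb8x12j_fdrtc_B with mALb8x12j_fdrtc_A (-0.96 there), mALb8x1_fdrtc_B with mALb8x12j_rprtc_B (-1.27), mALb8x12_fdrtc_B with mALb8x2_fdrtc_A (-0.85), mALb8x12j_fdrtc_B with mALb8x1_fdrtc_A (-2.94), mALb8x12j_fdrtc_B with mALb8x1_rprtc_A (-2.54), Jerala_P2 with mALb8x12j_rprtc_B (-3.46), Jerala_P4 with mALb8x12_fdrtc_B (-3.76) and Jerala_P6 with mALb8x12_rprtc_B (-3.22). The row medians over shared unrelated partners of mALb8x12_fdrtc_B (-1.06 in the mALb R pool) and mALb8x12j_fdrtc_B (-1.93) also did so. Of the 112 between-form pairs 11 did so. The pairs of Jerala_P2, Jerala_P4 and Jerala_P6 had only 158, 27 and 47 reads before selection in the mALb R pool.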

How the results depend on the processing

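On the mean of both replicates the median log2 ratio was 3.27 for A with B pairs (3.97, 3.37, 1.65 and 1.59 for x1, x2, x12 and x12j), 1.74 between forms and -1.97 for unrelated partners, and A with B minus unrelated was 5.24. With the median of all pairs subtracted these became 5.55 (6.24, 5.64, 3.92 and 3.87), 4.01 and 0.30, which changes the sign for unrelated partners by construction. With the medians of row and column chains subtracted A with B was 4.89 (x1 6.09, x2 5.19, x12 2.23), between forms 2.62, and A with B minus unrelated 7.09. In the mALb R pool between forms was 2.64, x1 4.79, x2 4.32 and x12 2.58. The first technical run alone gave 1.83 between forms. With either replicate left out the ranges were 2.59 to 3.60 for A with B, 1.83 to 1.91 between forms, -2.28 to -1.92 for unrelated partners, 4.50 to 5.88 for A with B minus unrelated, 3.29 to 3.84 for x2 and 1.01 (without replicate 1) to 2.17 for x12j. The median of fdrtc minus rprtc was -1.54 and ranged from -1.92 to -1.16 with a replicate left out. Enriched pairs (5 A with B, 12 between forms, 45 unrelated, 151 in all) numbered 11, 50, 158 and 507 by library size without TMM and 14, 79, 646 and 2004 with DESeq2. With 1 library left out they ranged from 0 to 15, 0 to 91, 0 to 1119 and 2 to 3917, low without a library before selection and high without one after it. With the replicate block they numbered 6, 17, 56 and 187, and shared 5, 10, 42 and 144 with the calls reported. Filters and single technical runs kept the counts within 1.5 times. Without TMM mALb8x12_fdrtc_A with mALb8x12_fdrtc_B had a log2 change of -0.84 in place of 1.47. With 2 replicates and few reads for mALb8x12_rprtc_B as column protein, calls for single pairs are limited by depth and replication.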
